A study of Mus musculus with 4 samples.

Results

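Immediate early and growth-response genes were followed as a set of 36 genes fixed by name. They were read in total RNA from mouse glomeruli, the filtering units of the kidney. All 36 had at least 1 probe set with a single gene symbol, among 18193 genes named in this way. Where a gene had several such probe sets, the one with the highest mean over the 4 arrays was used. All animals were male and had undergone uninephrectomy, the removal of a kidney. The 4 groups combined a genotype, wild type (WT) or a knockout, in all cells, of guanylyl cyclase A (GC-A KO, here KO), with a treatment. Control mice received 2% ethanol as a continuous subcutaneous injection with a normal diet. ALDO mice received aldosterone, the main mineralocorticoid hormone, by the same route with a 6% high salt diet, and the series' design text gives 3 weeks for this treatment. GC-A, the product of Npr1, binds the natriuretic peptides ANP and BNP. Each group had 1 array, so no difference below has a replicate error or a test, and precision is limited by there being 4 arrays. The sources used here do not give the strain, the age, how glomeruli were isolated or whether mice were pooled.

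Values are probe set intensities on a linear scale, and 4 values in a row always stand for WT control and KO control, then WT ALDO and KO ALDO. Differences are on the scale log2(intensity + 16), where 1 is a 2-fold difference and the change of dim genes is understated. A difference of 2-fold or more is called, and the share of all 18193 genes so called is printed beside the counts of the 36 genes. Of the 36 genes, 24 lay in the brighter 50% of all genes (at least 8.04 on that scale, or an intensity near 247) and 12 were dimmer. The 12 dimmer genes were Fosb, Fosl1, Egr2, Egr3, Atf3, Nr4a2, Nr4a3, Dusp4, Myc, Maff, Csrnp1 and Arc. Over all probe sets the medians of the arrays were 89.5, 97.7, 91.9 and 103, after scaling to a common trimmed mean. All 10 podocyte markers with a named probe set were in the brighter 50%, and so were all 12 proximal tubule and all 12 distal nephron markers, so transcripts of tubules were present beside those of podocytes. The Npr1 probe set read 92.6, 108, 60.5 and 23.4. Where it lies relative to the deletion is unknown from the sources used here, and it therefore checked no genotype label.

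Immediate early genes are transcribed within minutes of a growth factor, a hormone, mechanical stretch or injury, without new protein synthesis. MAP kinases, serum response factor (SRF) with its partners, and the cAMP-responsive factor CREB carry the signal to their promoters. Most encode transcription factors (FOS and JUN, which pair as AP-1, the EGR zinc fingers, Kruppel-like factors and NR4A orphan nuclear receptors), while others encode phosphatases and RNA-binding proteins that end the response. Their mRNAs are short-lived, and in the kidney they are known to respond to ischaemia, shear stress and handling of the tissue.

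Promoters are shown for the genes that were called in at least 1 of the 4 comparisons and had an entry in the RefSeq promoter table (mouse build GRCm38.p6). These were Ier5, Atf3, Nr4a3, Maff and Fosb. With Egr1, Myc and Fosl1 they made 8 of 36 genes so called, against 17.2% of all genes. Each sequence is the 250 bases before the start site, 5′ to 3′ on the gene's strand. Capitals mark TGACG on either strand, the core of the cAMP response element TGACGTCA to which CREB and ATF proteins bind. Maff has 3 start sites in the table, and the one with the most TGACG matches is printed.
Ier5 (chr1:155099637-155099886, minus strand): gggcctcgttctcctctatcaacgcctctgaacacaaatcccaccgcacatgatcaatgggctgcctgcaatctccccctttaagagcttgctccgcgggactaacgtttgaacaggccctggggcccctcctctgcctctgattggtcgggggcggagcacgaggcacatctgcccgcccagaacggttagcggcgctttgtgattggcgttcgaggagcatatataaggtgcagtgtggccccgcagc
Atf3 (chr1:191183334-191183583, minus strand): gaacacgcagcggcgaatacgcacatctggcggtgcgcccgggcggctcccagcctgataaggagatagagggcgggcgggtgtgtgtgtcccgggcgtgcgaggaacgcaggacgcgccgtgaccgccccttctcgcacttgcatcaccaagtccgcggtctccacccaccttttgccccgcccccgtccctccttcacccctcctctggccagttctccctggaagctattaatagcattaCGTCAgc
Nr4a3 (chr4:48045055-48045304, plus strand): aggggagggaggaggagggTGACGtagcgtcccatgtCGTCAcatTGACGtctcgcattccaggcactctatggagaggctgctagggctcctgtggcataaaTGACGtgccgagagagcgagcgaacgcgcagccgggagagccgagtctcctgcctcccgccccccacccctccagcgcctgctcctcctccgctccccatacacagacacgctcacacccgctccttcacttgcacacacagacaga
Maff (chr15:79347270-79347519, plus strand): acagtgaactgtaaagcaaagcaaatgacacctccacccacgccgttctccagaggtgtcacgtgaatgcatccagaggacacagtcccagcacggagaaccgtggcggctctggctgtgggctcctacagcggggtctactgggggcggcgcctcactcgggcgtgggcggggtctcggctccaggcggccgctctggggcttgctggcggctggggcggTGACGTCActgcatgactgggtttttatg
Fosb (chr7:19310046-19310295, minus strand): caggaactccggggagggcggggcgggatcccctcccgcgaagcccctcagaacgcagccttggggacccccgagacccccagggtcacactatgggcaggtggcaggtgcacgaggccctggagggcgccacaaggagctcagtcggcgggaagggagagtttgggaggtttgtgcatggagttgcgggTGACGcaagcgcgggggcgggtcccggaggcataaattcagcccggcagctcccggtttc
The Maff window held the full TGACGTCA from base -29 to -22, counted back from the start site. Nr4a3 had 4 TGACG matches, of which the nearest to the start site ended at base -143. Atf3 had 1, on the opposite strand from base -7 to -3, and Fosb had 1 from base -60 to -56, whereas Ier5 had 0. In all, 28 of the 36 genes matched the table, and 15 of them held TGACG in at least 1 window (21 of 37 windows). TGACG was found in 17.8% of all 32851 windows of that length in the table. The full TGACGTCA, which contains TGACG on both strands, was found for Btg2, Dusp1 and Maff (3 of 37 windows) and in 1.55% of all windows. The CArG box, the site of SRF, was found for Egr2 and Zfp36 (5 of 37 windows) and in 1.47% of all windows. The AP-1 motif TGANTCA was found for Csrnp1 and Zfp36l1 (2 of 37 windows) and in 6.75% of all windows. These matches describe the letters in the windows and are not evidence of binding.

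The genes were highest in KO ALDO in most cases. The KO ALDO array held the highest of the 4 values for 28 of the 36 genes, against 34.1% of all genes, and the lowest for 0 of 36, against 24.5% of all genes. The WT control array held the lowest value for 18 of the 36, against 30.1% of all genes, and KO control for 12, against 21.1%. WT ALDO held the lowest for 6, against 24.3%. The KO ALDO array also had the highest median over all probe sets, and centring every array on its median left 22 of 36 genes highest there, against 21.7% of all genes. With quantile normalization the number was 26, against 28.1%. The exceptions to the KO ALDO maximum were Fosb, Dusp1, Dusp6 and Zfp36, highest in WT ALDO (21.2% of all genes), Nr4a3 and Csrnp1, highest in KO control (21.1%), and Gadd45g and Arc, highest in WT control (23.6%).

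**Figure D1:**
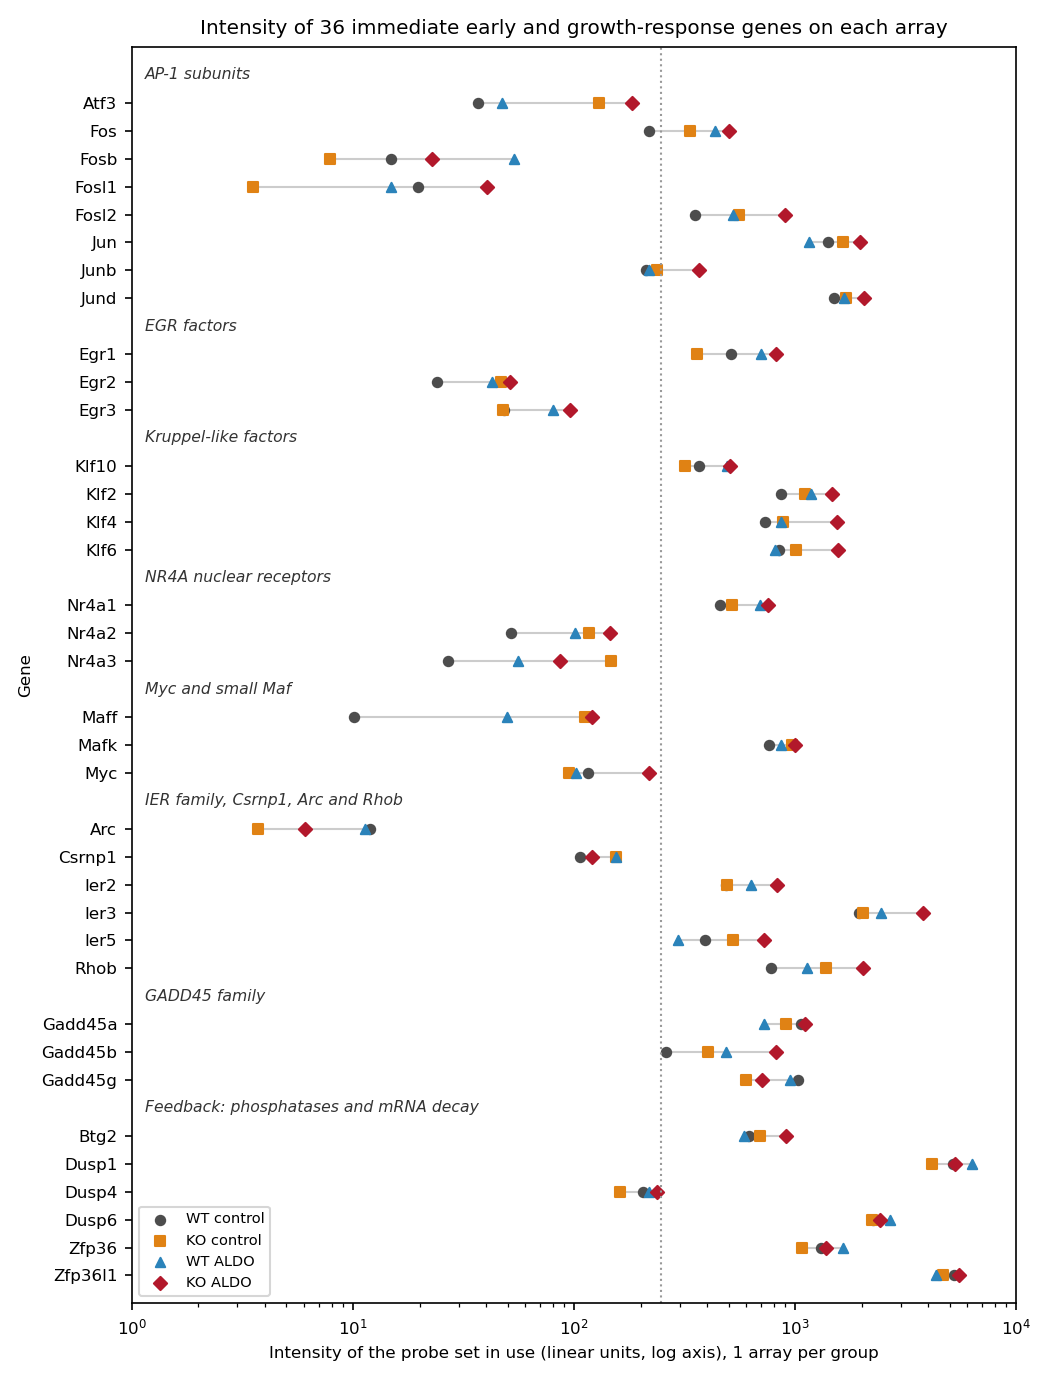
Intensity (log axis) of the probe set in use for each of the 36 genes, grouped by role, with 1 symbol per array; the dotted line (247) bounds the brighter 50% of genes. The KO ALDO diamond is the rightmost symbol for 28 genes and the leftmost for 0.

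**Figure D2:**
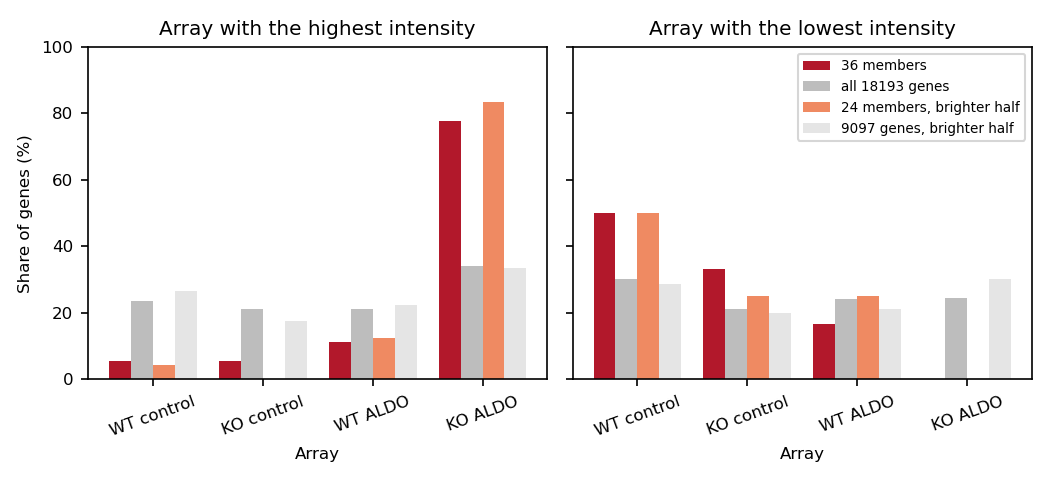
Share of genes (%) whose highest (left) or lowest (right) intensity was on each array, for the 36 members and all 18193 genes, and for the 24 members and 9097 genes of the brighter 50%. KO ALDO was highest for 77.8% of the members and 34.1% of all genes, and in the brighter 50% for 83.3% and 33.5%.

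KO control against WT control compared the genotypes without aldosterone and salt. Atf3, Nr4a3 and Maff were called higher, 3 of 36 genes against 4.54% of all genes, and 0 were called lower, against 2.48%. All 3 were among the dimmer genes. The median difference of the 36 genes was 0.17, against 0.02 for all genes, and 22 were above 0, against 53.2% of all genes. Centring the arrays on their medians moved the median of the 36 to 0.06 and that of all genes to -0.09.

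Under aldosterone and salt, the genotypes were set side by side as KO ALDO against WT ALDO. Ier5, Atf3 and Maff were called higher (3 of 36, against 4.81% of all genes), and 0 were called lower (against 2.37%). The median was 0.36, against 0.04 for all genes, and 29 of 36 were above 0, against 55.4% of all genes. With centred arrays the median of the 36 was 0.22 and that of all genes -0.10. The 7 genes below 0 were Fosb, Dusp1, Dusp6, Zfp36, Gadd45g, Csrnp1 and Arc. This comparison and the one under control treatment share no array, and 21 of the 36 genes were above 0 in both, against 35.3% of all genes.

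WT ALDO against WT control compared the treatments in WT. Fosb and Maff, both dim, were called higher (2 of 36, against 3.47% of all genes), and 0 were called lower (against 2.64%). The median was 0.31, against 0.01 for all genes, and 26 of 36 were above 0, against 51.8%. The lowest differences were those of the stress gene Gadd45a at -0.55 and of Ier5 at -0.37.

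KO ALDO against KO control compared the treatments in the knockout. Fosl1, Egr1 and Myc were called higher (3 of 36, against 3.90% of all genes), and 0 were called lower (against 2.37%). The median was 0.45, against 0.03 for all genes. Of the 36 genes, 34 were above 0, against 53.9% of all genes, and all but Nr4a3 (-0.67) and Csrnp1 (-0.32) belonged to them. With centred arrays 33 were above 0, against 44.5% of all genes, Mafk being the gene that crossed (0.04 to -0.03). In the treatment comparisons of both genotypes 24 of the 36 genes were above 0, against 31.4% of all genes. With 26 above 0 in WT and 34 in KO, 24 is the smallest overlap possible, so it adds nothing to those counts.

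The ALDO effect in KO minus that in WT had a median of 0.19 over the 36 genes, against 0.01 for all genes, and 25 were above 0, against 51.5%. Fosl1 and Myc were 2-fold or more higher in this difference (2 of 36, against 5.93%), and Nr4a3 and Maff 2-fold or more lower (2 of 36, against 5.23%). A gene above 0 in all 4 comparisons is one with WT control lowest and KO ALDO highest, so its count is not separate from those by array. Above 0 in all 4 comparisons stood 16 of the 36 genes, against 16.5% of all genes: Fos, Fosl2, Junb, Jund, Egr2, Ier2, Ier3, Atf3, Klf2, Klf4, Nr4a1, Nr4a2, Maff, Mafk, Gadd45b and Rhob. With centred arrays Ier2, Ier3, Nr4a1 and Mafk were below 0 in 1 of them each. When a gene's probe sets were averaged, Jund and Nr4a2 were below 0 in 2.

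**Figure D3:**
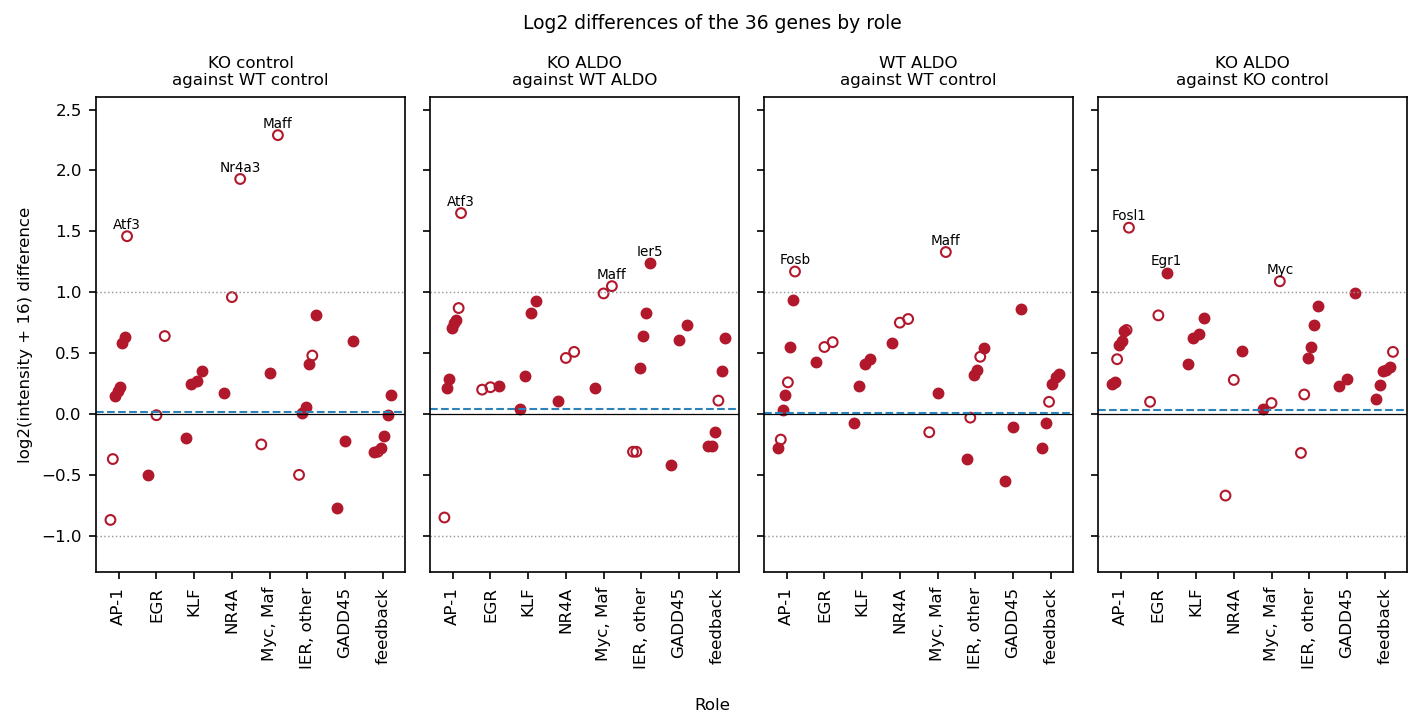
Log2(intensity + 16) difference of each gene in the 4 comparisons, grouped by role; filled points lie in the brighter 50% of genes, open points below it, the dashed line is the median of all genes and dotted lines mark 2-fold. Of the named points past 2-fold, Ier5 and Egr1 are the filled ones.

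**Figure D4:**
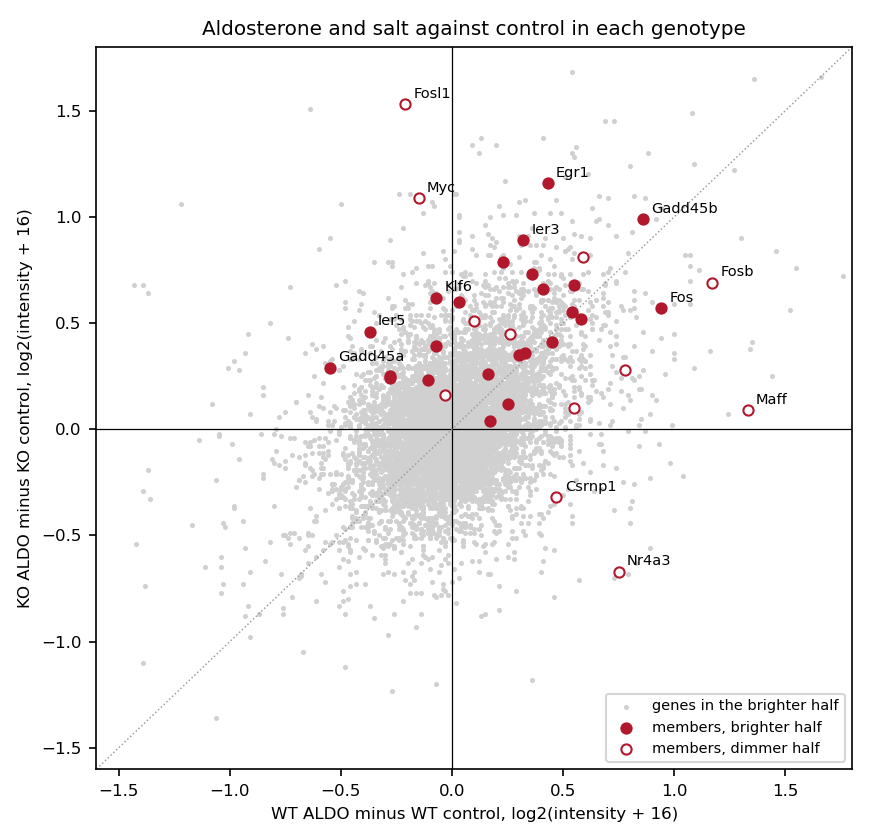
Log2 difference of ALDO against control in WT (horizontal) and in KO (vertical) for the 36 genes and, in grey, the genes of the brighter 50% that fall within the axes; the dotted line marks equal differences. Only Nr4a3 and Csrnp1 lie below 0 on the vertical axis, while 10 members lie left of 0 on the horizontal axis.

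Among the AP-1 subunits, all 8 were higher in KO ALDO than in KO control, against 53.9% of all genes, with a median difference of 0.58. Fos, the partner of JUN proteins in AP-1, read 218, 333, 433 and 502. The differences of Fos were 0.94 for ALDO in WT and 0.57 in KO, and both KO arrays were above the WT array of the same treatment (0.58 and 0.21). Fosl2, a slower FOS relative, read 352, 556, 522 and 902. KO ALDO stood above the other 3 arrays, with a genotype difference of 0.63 under control treatment and 0.77 under ALDO. A second, dimmer Fosl2 probe set gave 0.18 and 0.27, in the same direction. Jun read 1407, 1640.2, 1154 and 1954, and its other probe set 749, 858, 615 and 1048. Both Jun probe sets were lowest in WT ALDO and highest in KO ALDO, and both gave 0.75 for KO ALDO against WT ALDO and -0.28 for ALDO in WT.

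Junb read 212, 237, 217 and 367, so that only KO ALDO stood away from the others (0.71 against WT ALDO and 0.60 against KO control). Jund, usually the least inducible JUN gene, read 1492, 1699, 1664 and 2039.7, a span of 1.37 times. A second Jund probe set, below the array median on all 4 arrays, gave the opposite direction for KO control against WT control and for ALDO in WT. Atf3, a stress-induced repressor that pairs with JUN proteins, read 36.9, 129, 47.2 and 182. Both KO arrays were above both WT arrays, by 1.46 under control treatment and 1.65 under ALDO, and the treatment differences were smaller (0.26 in WT and 0.45 in KO). Atf3 has 1 probe set here, and both its WT values were below their arrays' medians. With a pseudocount of 64 in place of 16 the difference under control treatment was 0.94, under the 2-fold limit.

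Fosb, which encodes a FOS relative and its truncated form, was dim, at 14.9, 7.89, 53.6 and 22.7. It was highest in WT ALDO, and the ALDO difference in WT was 1.17, or 0.58 with a pseudocount of 64. Fosl1 (FRA-1) read 19.6, 3.53, 14.8 and 40.2, and its second probe set was also highest in KO ALDO, at 40.3. Every value of both Fosl1 probe sets was below the median of its array. The differences of KO ALDO against KO control were 1.53 and 1.38, and the call of the first was lost with a pseudocount of 64 (0.63).

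The EGR factors are zinc-finger proteins whose genes respond to ERK signalling through SRF. Egr1 read 512, 359, 697 and 822. KO control was the lowest array and KO ALDO the highest, so that ALDO against control gave 1.16 in KO and 0.43 in WT. The genotype difference of Egr1 was -0.50 under control treatment and 0.23 under ALDO. Within the brighter 50%, Egr1 was the 1 member of 24 called higher under ALDO in KO, against 0.572% of those genes, and 0 were called in WT, against 0.330%. Egr2 (24.1, 46.6, 42.5 and 51.3) and Egr3 (48.1, 47.7, 80.3 and 96.0) were below the array medians throughout, and a second Egr2 probe set gave 1.14 for ALDO in KO where the first gave 0.10. For Egr3 both ALDO arrays were above both control arrays, at 0.59 in WT and 0.81 in KO, but a second, dimmer probe set gave -0.29 and -0.26.

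All 4 Kruppel-like factors were in the brighter 50%. All 4 were higher under ALDO in KO, against 52.4% of those genes, by 0.41 to 0.79 in the probe sets in use. Klf2, a factor of endothelial cells that responds to shear stress, read 859, 1101, 1176 and 1467. It was lowest in WT control and highest in KO ALDO, with genotype differences of 0.35 and 0.31 and ALDO differences of 0.45 and 0.41. Klf4, which acts in endothelial cells and podocytes among others, read 732, 884, 861 and 1543. KO ALDO stood above the other 3 arrays, with 0.83 against WT ALDO and 0.79 against KO control, and the second Klf4 probe set gave 0.83 and 1.03. Klf6, an injury-response factor, read 846, 1008, 808 and 1556, which was 0.93 for KO ALDO against WT ALDO and 0.25 under control treatment. Klf6 had 3 further probe sets in the range of the brighter genes. These gave 0.78, 0.86 and 0.82 under ALDO, and 0.67, 0.74 and 0.64 under control treatment, a wider genotype difference there than the brightest probe set showed. For ALDO against control in KO they gave 0.12, 0.30 and 0.28, less than the 0.62 of the brightest. Klf10, a gene induced by TGF-beta, read 366, 316, 493 and 508. Both ALDO arrays were above both control arrays (0.41 in WT and 0.66 in KO), while its genotype difference under ALDO of 0.04 turned to -0.05 with quantile normalization and -0.10 with centred arrays.

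Among the NR4A orphan receptors, transcription factors that are regulated mainly by their own amount, Nr4a1 was the gene of the brighter 50%. Nr4a1 read 459, 519, 694 and 749. Both ALDO arrays were above both control arrays, with 0.58 in WT and 0.52 in KO, and genotype differences were 0.17 and 0.11, the second of which was -0.04 with centred arrays. Nr4a2 (51.9, 117, 101 and 145) gave 0.96 for KO control against WT control. Of its 5 other, dimmer probe sets some went the opposite way, and the mean of all Nr4a2 probe sets gave -0.20. Nr4a3 read 26.9, 147, 56.0 and 86.6, highest in KO control. Its difference was 1.93 between genotypes under control treatment and 0.51 under ALDO, and ALDO against control gave 0.75 in WT and -0.67 in KO. A second Nr4a3 probe set (21.5, 69.4, 68.6 and 32.0) gave 1.19 and -0.82 for the genotypes and 1.18 and -0.83 for ALDO. These 2 probe sets thus had opposite signs for KO ALDO against WT ALDO and the same sign in the other 3 comparisons. The remaining Nr4a3 probe set was dimmer still, at 2.06 to 11.0.

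Myc, a driver of growth and cell division, read 115, 94.4, 102 and 219. KO ALDO stood away from the other 3 arrays, with 1.09 against KO control and 0.99 against WT ALDO, just under the 2-fold limit. With a pseudocount of 64 the first was 0.84. Maff and Mafk encode small MAF proteins, which lack an activation domain and pair with NRF2 and related factors. Maff read 10.1, 112, 49.7 and 120.3, with WT control lowest and both KO arrays above both WT arrays. The genotype difference of Maff was 2.29 under control treatment, the largest among the 36 genes in the 4 comparisons, and 1.05 under ALDO. Both WT values of Maff were below their arrays' medians. Its difference under ALDO was 0.91 with quantile normalization and 0.91 with centred arrays, and 0.70 with a pseudocount of 64. Mafk read 764, 969.9, 859.6 and 999, a span of 1.31 times.

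The IER genes are immediate early response genes of several kinds. Ier2, a nuclear protein of the early growth response, read 486, 490.0, 630.0 and 824. The control arrays were 0.01 apart and the ALDO arrays higher, with 0.36 in WT and 0.73 in KO. With centred arrays the 0.01 turned to -0.10. Ier3, which modulates ERK signalling and cell survival, read 1948, 2030.2, 2431 and 3788. Both ALDO arrays were again above both control arrays (0.32 and 0.89), and KO ALDO was 0.64 above WT ALDO. Ier5, a regulator of the heat shock factor HSF1, read 389, 522, 296 and 723. Both KO arrays were above both WT arrays, by 0.41 under control treatment and 1.24 under ALDO, the 1 call among the 24 members of the brighter 50% there, against 1.26% of those genes. Under control treatment 0 of the 24 were called higher, against 0.967%. For Ier5, ALDO against control gave -0.37 in WT and 0.46 in KO. Its dim probe sets gave 0.37 and 1.53 for KO ALDO against WT ALDO. For ALDO against control in WT and KO the first gave 0.27 and 0.38 and the second -0.17 and -0.09. Neither had opposite signs in WT and KO.

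Rhob, a gene induced by stress and growth factors, read 775, 1375, 1131 and 2021. Both KO arrays were above the WT array of the same treatment by 0.81 and 0.83, and both ALDO arrays above the control array of the same genotype by 0.54 and 0.55. Csrnp1, a nuclear protein first described as induced by axin, read 106, 155, 154 and 121, and it was highest in KO control and WT ALDO. A second, dimmer Csrnp1 probe set (50.4, 81.6, 35.3 and 6.44) differed from it in WT under ALDO (-0.37 against 0.47). Arc, best known as a synaptic gene of neurons, was near the low end of the scale on all arrays (11.9, 3.73, 11.3 and 6.05), and no direction is read from it.

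The GADD45 proteins bind stress kinases and cell cycle proteins. Gadd45b, the member known for its induction by TGF-beta and NF-kB, read 259.6, 403, 485 and 814. It was lowest in WT control and highest in KO ALDO, with 0.60 and 0.73 between genotypes and 0.86 and 0.99 under ALDO, the last just under the 2-fold limit. The other Gadd45b probe sets gave 0.96 and 0.93 for KO ALDO against WT ALDO, and 0.03 and 0.23 for ALDO in WT. Gadd45a, a p53 target, read 1057, 905, 719 and 1109, lowest in WT ALDO (-0.55 for ALDO in WT and 0.61 for KO ALDO against WT ALDO). Gadd45g read 1027, 597, 948 and 706. Both KO arrays of Gadd45g were below both WT arrays, by -0.77 and -0.42, the opposite of Gadd45b.

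The feedback genes, phosphatases and mRNA-decay factors that limit the response, had the lowest genotype median of the 8 roles under control treatment (-0.23). The GADD45 family was next, at -0.22. Under ALDO the median of the feedback genes was -0.02. Under control treatment 5 of 6 were below 0, where 53.2% of all genes were above 0. Dusp6, at -0.01, was among the 5 and turned to 0.01 with quantile normalization. Dusp1, a nuclear phosphatase of p38, JNK and ERK that glucocorticoids also induce, read 5142, 4139, 6322 and 5270.2. KO was below WT under either treatment (-0.31 and -0.26), and ALDO was above control in either genotype (0.30 and 0.35). Zfp36 (tristetraprolin), which destabilises AU-rich mRNAs, had the same order of arrays, at 1304, 1071, 1647 and 1375. Its differences were -0.28 and -0.26 between genotypes and 0.33 and 0.36 under ALDO. Dusp6, a cytoplasmic phosphatase specific for ERK, read 2247, 2227, 2684 and 2413. Dusp6 spanned 1.21 times over the 4 arrays, the smallest span among the 36 genes.

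Dusp4, a nuclear ERK phosphatase, read 204, 162, 219 and 238 and was lowest in KO control, while its 0.11 for KO ALDO against WT ALDO turned to -0.03 and -0.04 with quantile normalization and centred arrays. Btg2, an antiproliferative p53 target and activator of deadenylation, read 616, 691, 584 and 908. The second Btg2 probe set (326, 507, 441 and 555) also had KO above WT under either treatment, but gave 0.42 and not -0.07 for ALDO in WT. Zfp36l1, a relative of Zfp36, read 5248, 4644, 4313 and 5485, and its second probe set 875, 770.1, 689 and 821. Both Zfp36l1 probe sets were lowest in WT ALDO, and their genotype difference was -0.18 under control treatment and 0.35 and 0.25 under ALDO.

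**Figure D5:**
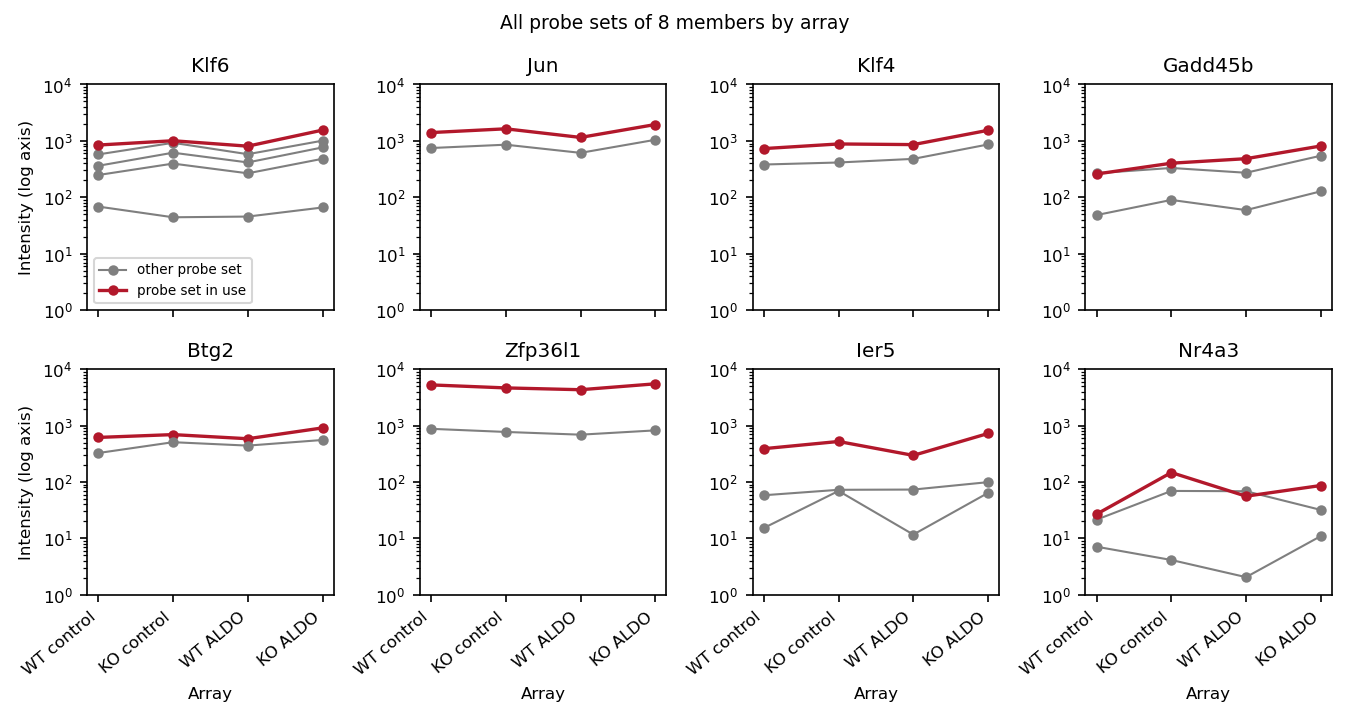
Intensity (log axis) of every probe set of 8 members on the 4 arrays; the probe set in use is red. The 4 brighter Klf6 probe sets and both Jun probe sets had KO above WT under either treatment, while the 2 brighter ones of Nr4a3 part at KO ALDO.

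Other probe sets of the same genes read the same RNA, so they say nothing of how animals vary. Over all 25 other probe sets, which belonged to 15 members, 18 had the same direction as the probe set in use for KO control against WT control, 21 for KO ALDO against WT ALDO, 12 for ALDO in WT and 19 for ALDO in KO. The largest gap between differences was 2.37. Among the brighter ones, 8 probe sets of 6 members (Btg2, Gadd45b, Jun, Klf4, Klf6 and Zfp36l1) could be set beside the probe set in use. All 8 had the same direction for KO control against WT control, for KO ALDO against WT ALDO and for KO ALDO against KO control. For ALDO in WT 4 of 8 did, the others being those of Btg2 and Klf6. The median gap between the 2 probe sets' differences was 0.35, 0.10, 0.28 and 0.12 in the same order of comparisons.

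Of the other genes of the pathway, the SRF, TCF, MRTF and CREB factors (11 with a named probe set) had medians of 0.22 and 0.21 between genotypes and 0.21 and 0.27 for ALDO in WT and KO. Srf itself read 301, 395, 349.5 and 506 and Elk3, a TCF partner of SRF, 495, 648, 543 and 824. Both had the order of arrays most common among the 36 genes, with WT control lowest and KO ALDO highest. In this list 1 of 11 genes was called in the 4 comparisons, against 17.2% of all genes. It was the dim Elk1, at 1.09 for KO ALDO against KO control. The 10 MAP kinase cascade genes had medians of -0.01, 0.11, 0.00 and 0.04 in the order KO control, KO ALDO, ALDO in WT and ALDO in KO. All 10 lay in the brighter 50%, and 0 were called in the 4 comparisons, against 2.98% of the genes there. Map2k1 (0.33) was highest between genotypes under control treatment and Map2k2 (-0.42) and Mapk14 (-0.42) lowest. The 13 growth factor ligands had medians of 0.13, 0.32, -0.11 and 0.18. Of the 13, 9 of them in the brighter 50%, 0 were called, against 17.2% of all genes and 2.98% of the brighter 50%. Among the ligands of the brighter 50%, the macrophage growth factor Csf1 (0.89) and the mesangial mitogen Pdgfb (0.79) were highest in KO ALDO against WT ALDO. The dim Fgf2 gave 0.97 there.

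The 30 secondary and delayed response genes had medians of 0.40, 0.58, 0.11 and 0.44 in the same order. In KO ALDO against WT ALDO 27 of 30 were above 0 (55.4% of all genes) and 7 were called higher (4.81%), among them the cytokine-signalling inhibitor Socs3 (2.66) and the matricellular protein gene Ccn1 (1.57). Ccn1 read 838, 846, 588 and 1782 and so, like Junb and Myc, was highest in KO ALDO by a wide step, at 1.06 against KO control. Ccn2 read 6459, 9656, 9365 and 13969, with 0.58 and 0.58 between genotypes. The lowest in KO ALDO against WT ALDO was Plau (-0.81). Between genotypes under control treatment 1 was called higher (Socs3, against 4.54% of all genes) and 2 lower (against 2.48%), the haem oxygenase gene Hmox1 (-1.10) and the dim Ptgs2 (-1.62). Hmox1 read 632, 286, 262 and 612, an order of arrays unlike that of Fos, Fosl2 and Gadd45b.

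Markers of other cells moved with the groups, and their part in the differences above was not tested. In bulk RNA, fewer cells of a type and less RNA per cell cannot be told apart. The summed intensity of 15 macrophage and monocyte markers was 9047, 18554, 8609.8 and 19031, higher in both KO arrays. KO was above WT under both treatments for 21 of the 36 genes too, against 35.3% of all genes. Of the 15 markers, all were above 0 in KO control against WT control (53.2% of all genes) and 8 were called higher (4.54%). In KO ALDO against WT ALDO 14 were above 0 (55.4%) and 11 were called higher (4.81%). For ALDO against control 0 were called in either direction in either genotype. Of all genes 3.47% (WT) and 3.90% (KO) were called higher there, and 2.64% and 2.37% lower. The summed intensity of 12 endothelial markers was 20229.6, 26576, 23648 and 33802, and that of 6 smooth muscle markers 12307, 13708, 17384 and 24232. Both were lowest in WT control and highest in KO ALDO, the order most common among the 36 genes, and Klf2 is itself expressed by endothelium. That order was not particular to these lists. The sums of mesangial (12138, 13611, 14610.3 and 17186) and distal nephron markers (79297, 81651, 85607 and 86752) had it, as did those of fibroblasts and podocytes below. Such sums are weighted towards bright markers, and single markers did not all follow them. In KO control against WT control 3 of 10 podocyte markers were above 0 (median -0.12), against 53.2% of all genes. In KO ALDO against WT ALDO 6 of 12 distal nephron markers were (median -0.06), against 55.4%. Parietal epithelial markers (27927, 32107, 27506 and 32748) were highest in KO ALDO but lowest in WT ALDO. For 6 fibroblast markers the sum was 4288, 6383, 5389.8 and 10456, again highest in KO ALDO. The 5 neutrophil markers summed to 859.7, 1069, 115 and 1140.3, so that this sum was low in WT ALDO alone. Not every neutrophil marker had that order. For ALDO in WT 1 of 5 was above 0, Mpo at 0.69, against 51.8% of all genes. In KO ALDO against WT ALDO 4 of 5 were above 0 (55.4%), and Mpo was at -1.03. All 5 fell below the array median on at least 1 array, and 1 of 5 was among the brighter genes. Podocyte markers summed to 32337, 32751, 35709 and 39531, and proximal tubule markers to 256947, 241341, 243363 and 219975. None of these lists had a marker at 0.

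Signs of handling and RNA quality were read in the same way, and their part was also not tested. The heat shock gene Hspa1b read 8546, 3014, 3291 and 4694, highest in WT control, where 18 of the 36 genes were lowest. Hspa1b has a near-identical copy, Hspa1a, and its reading is uncertain to that extent. All 11 heat shock genes were below 0 in KO control against WT control (median -0.35), where 53.2% of all genes were above 0. In WT ALDO against WT control 10 of 11 were (-0.19), where 51.8% were above 0. Hspa1a (-1.42 and -1.39) and Hspa1b (-1.50 and -1.37) were called lower in these comparisons. That was 2 of 11 in each, against 2.48% and 2.64% of all genes. In KO ALDO against KO control 9 of 11 were above 0 (median 0.11), against 53.9% of all genes, as were most of the 36 genes. Hspb1 was called higher at 1.11 (1 of 11, against 3.90% of all genes), and Hspa1a, not called, was at 0.68. In KO ALDO against WT ALDO 5 of 11 were above 0 (median -0.05), against 55.4% of all genes. Hspb1 was again called higher at 1.11 (1 of 11, against 4.81%), and Hspa1a, not called, was at 0.65. The ratio of the 3′ to the 5′ probe set of beta-actin was 1.86, 1.67, 1.87 and 1.61, lower in both KO arrays, and that of Gapdh was 0.785, 0.741, 0.778 and 0.744. The median difference of 18 probe sets of spiked-in control RNA was -0.04 and 0.08 between genotypes and -0.27 and -0.11 for ALDO in WT and KO.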

How the data were processed

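Total RNA from glomeruli was hybridised to 1 Affymetrix array per group (4 arrays, 45101 probe sets). The deposited values were intensities on a linear scale, and per the submitters' processing notes Affymetrix Expression Console was used; the sources used here do not give its algorithm, version or detection calls. All arrays had a mean of 500.003 once 2% at either end were set aside, so the authors' deposited intensities had been scaled, and a change of the whole transcriptome would not show.

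Genes were named from the platform annotation (34945 probe sets with 1 symbol, 932 with several, 9211 not listed, 64 controls left out). Entrez identifiers of all 36 members were found in RefSeq (GRCm38.p6), with 0 changed symbols. Intensities became log2(intensity + 16), and pairs of arrays were subtracted. With 1 array per group no test was run. All 36 members were named; of other fixed lists, up to 2 of the highest and 2 of the lowest brighter genes per comparison, and Elk1 and Ptgs2 after their values were seen. The members and lists were chosen with earlier results of these data known. Alternatives were pseudocounts of 1 and 64, quantile normalization, median centring, the mean of all probe sets, and the brighter 50% or brightest 25% of genes. Steps were tested on simulated data. Python 3.11.15, pandas 2.3.3 and numpy 2.4.6 were used.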

Additional observations from a re-analysis of the deposited data

Results flagged for a closer look

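The ALDO difference and the genotype difference of 3 genes went in opposite directions in the 2 genotypes or under the 2 treatments, with the 2 effects 2-fold or more apart. With 1 array per group the difference was not tested. For Fosl1 the ALDO effect in KO minus that in WT was 1.74 on the log2 scale, from intensities that were all below the array medians. For Myc it was 1.24, and KO ALDO was the array that stood away. For Nr4a3 it was -1.42, with KO control highest, and its second probe set had the same signs under ALDO in both genotypes. A further 13 of the 36 genes had opposite signs with a smaller gap between the effects.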

How the results depend on the processing

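The 13 summary results (counts called in each direction and medians in the 4 comparisons, and the median difference of ALDO effects) were recomputed under 7 alternatives. None of the medians changed sign, and a count has no sign to change. Of these 91 values 73 stayed close to the reported value (a count within 1.5 times, a median within 0.1) and 18 moved. The reported counts called lower were 0 in all 4 comparisons, and a 0 that stayed 0 was taken as close. With a pseudocount of 1, genes called lower were 2 in KO control against WT control and 1 in KO ALDO against WT ALDO, and genes called higher were 5 in KO ALDO against WT ALDO and 5 in KO ALDO against KO control. With a pseudocount of 64, genes called higher were 0 for ALDO in WT and 1 for ALDO in KO. With centred arrays the genotype medians were 0.06 (control treatment) and 0.22 (ALDO). The mean of all probe sets called 1 gene lower for ALDO in KO (Csrnp1, -1.22). Within the brighter 50%, genes called higher were 0 in KO control against WT control, 1 in KO ALDO against WT ALDO, 0 for ALDO in WT and 1 for ALDO in KO, and the median difference of ALDO effects, 0.19 over all 36 genes, was 0.30. Within the brightest 25% (11 members) 0 were called higher in each of the 4 comparisons. These last alternatives keep fewer genes by construction, and all but 2 of the 11 calls were of genes below the brighter 50%. Of the values of single genes under the alternatives, 14 fell under the 2-fold limit and 12 passed it. No paired analysis was possible because each group had 1 array. Leaving out an array was not possible for the same reason.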
